A study of Homo sapiens with 6 samples.

Results

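The 10 genes described here encode NRF2 (NFE2L2), its inhibitor KEAP1 and 8 antioxidant genes that NRF2 is known to activate: GCLC, GCLM, NQO1, HMOX1, TXNRD1, SRXN1, FTL and FTH1. They were taken by symbol from count tables of 28278 gene symbols, and all 10 were present and passed the filter on low counts. The tables hold messenger RNA counts from RKO, an established human colon carcinoma line, in 3 libraries of GSK3B knockout cells and 3 libraries of GSK3B wild-type cells. No treatment is named for either group. The labels do not say how GSK3B was disrupted, whether the knockout cells were 1 clone or a pool, or whether replicates were separate cultures, so p-values measure only the spread between these libraries, which may be technical. The comparison asks which of these transcripts differed when GSK3B was disrupted.

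NRF2 is a transcription factor that pairs with a small MAF protein and binds antioxidant response elements in its target genes. KEAP1, an adaptor of a cullin-3 ubiquitin ligase, keeps the NRF2 protein low, and does so less when its own cysteines are modified by oxidants. GSK3 can phosphorylate NRF2 and so mark it for a second ubiquitin ligase, built on beta-TrCP, so both routes act on the protein. The targets make glutathione, reduce thioredoxin and oxidized peroxiredoxins, reduce quinones, break down heme and store iron.

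The core of the antioxidant response element, written here as TGACNNNGC, was searched on both strands in RefSeq promoters of GRCh38.p14, each 250 bases before to 50 bases after an annotated start. The promoter table held 11 promoters of 8 of the genes and none for HMOX1 or FTH1. The core was found in 4 of the 11, those of GCLM, both starts of TXNRD1 and 1 of the 2 starts of KEAP1, against 4687 of all 35116 promoters (13.3%). None of the 11 held TGACTCA, the AP-1 site that can be contained in this core, which 4.9% of all promoters held. Of the genes with the core, GCLM rose, TXNRD1 fell and KEAP1 did not pass the test described further on, and FTL, which rose, had no core in its window. The sites are shown with 10 bases on either side, the core in capitals, and positions count from the start base as 0.
GCLM, chr1:93909446-93909474, plus strand, core at -34 to -26: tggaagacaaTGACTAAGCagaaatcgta
TXNRD1, upstream start, chr12:104215670-104215698, plus strand, core at -99 to -91: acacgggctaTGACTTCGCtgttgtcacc
TXNRD1, upstream start, chr12:104215761-104215789, minus strand, core at -8 to 0: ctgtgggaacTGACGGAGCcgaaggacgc
TXNRD1, downstream start, chr12:104286920-104286948, minus strand, core at -102 to -94: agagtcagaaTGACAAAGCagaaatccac
KEAP1, chr19:10502807-10502835, minus strand, core at -54 to -46: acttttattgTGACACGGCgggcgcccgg
KEAP1, chr19:10502784-10502812, plus strand, core at -31 to -23: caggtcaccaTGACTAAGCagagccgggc
The core of GCLM and the second core of KEAP1 were spelled alike. A match is a description of these letters and not a measured binding site, and no match says only that the letters were not in the window.

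Total counts ran from 32379369 to 33558362 per library. GSK3B itself had 45.9, 47.5 and 47.1 CPM (counts scaled to the size of the library by the TMM method) in the knockout libraries, against 98.9, 97.6 and 91.3 CPM in the wild-type libraries. Its knockout level was thus 48.8% of the wild-type level (95% interval 45.4 to 52.4), and the paralog GSK3A stood at 102.2% (95.3 to 109.7). Epithelial keratin genes KRT8 and KRT18 and the intestinal genes CDX2 and VIL1 were present in all 6 libraries, the keratin genes KRT19 and KRT20 had at most 5 and 2 counts, CDH1 was listed at 0 in all, and EPCAM was low, with 34 to 37 counts in knockout and 80 to 140 in wild-type libraries. The mesenchymal gene VIM averaged 32.8 CPM in the knockout and 37.2 CPM in the wild type. The fibroblast genes COL1A1 and COL1A2 reached 61 and 23 counts in wild-type replicate 3 and at most 19 and 1 elsewhere. The leukocyte genes PTPRC and CD3E were listed at 0 in all libraries. CD14 and PECAM1 had at most 2 counts and HBB at most 1. CD68, a macrophage marker, averaged 755.9 CPM in the knockout and 749.2 CPM in the wild type, a level not matched by PTPRC or CD14. The part of these marker differences in the results was not tested. In bulk RNA, fewer cells of a kind and less RNA per cell cannot be told apart.

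Of the 10 genes, GCLM and FTL rose, TXNRD1 fell and 7 did not pass the test in the knockout. The test was edgeR's quasi-likelihood test over 14409 genes with Benjamini-Hochberg adjustment and a threshold of 0.05. It called 13.5% of all tested genes, 6.36% as higher and 7.18% as lower (917 and 1034 genes, or 650 and 1229 with scaling by library size). GCLM stood at 118.0% and FTL at 109.5% of the wild-type level, and the fall of TXNRD1 brought it to 84.2%. The log2 fold change was positive for 9 of the 10 genes, as it was for 7226 of the 14409 tested, and the median over the 10 was 0.07, beside 0.00 over all tested genes. DESeq2 and limma-voom called the same 3 of the 10 genes and 12.9% and 13.3% of all tested genes. Knockout and wild-type libraries did not overlap in CPM for 5 of the 10, GCLM, TXNRD1, SRXN1, FTL and FTH1, against 31.3% of all tested genes.

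With a correction for GC content, 6 of the 10 genes were called, against 18.9% of all tested genes: KEAP1, GCLM, HMOX1, SRXN1 and FTL higher and TXNRD1 lower. Fold changes across all genes fell with the GC content of the transcript. In the fifth of genes with the lowest GC, which holds GCLM, the median log2 fold change was 0.08, and in the fifth with the highest GC, which holds KEAP1, it was -0.07. Corrected log2 fold changes were 0.18 for FTL, 0.17 for HMOX1, 0.14 for GCLM and KEAP1, 0.09 for SRXN1 and -0.26 for TXNRD1. The calls of KEAP1, HMOX1 and SRXN1 therefore rest on this correction, while those of GCLM, TXNRD1 and FTL were made with and without it. The call of GCLM was lost when the replicate number was also a term of the fit (edgeR, adjusted p = 0.0505).

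**Figure D1:**
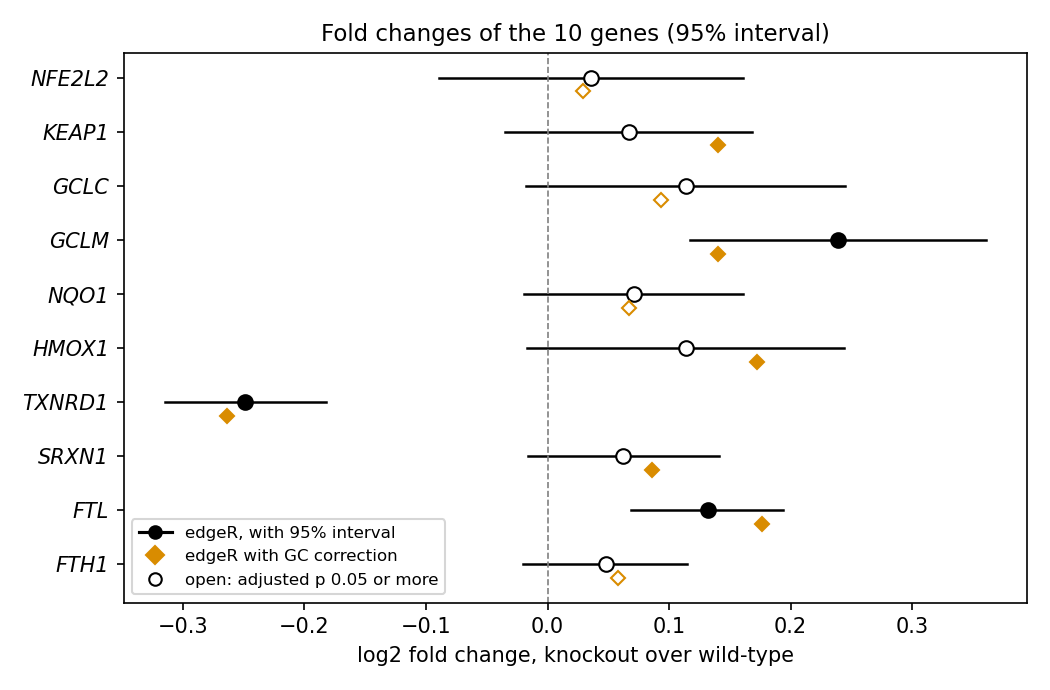
Log2 fold changes of knockout over wild-type libraries for the 10 genes (x axis), with circles for edgeR's estimate, lines for its 95% interval and diamonds for the estimate with a GC correction; filled symbols have an adjusted p under 0.05. TXNRD1 alone lies below 0, at -0.25, and without the correction GCLM lies highest, at 0.24.

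NFE2L2 lies on chromosome 2 (177227595 to 177392697, minus strand, GENCODE 29 on hg38, as are all gene positions here). It had 60.7, 59.5 and 61.8 CPM in knockout libraries, against 62.6, 62.6 and 52.4 CPM in wild-type libraries. The groups overlapped, and wild-type replicate 3 was the lowest of the 6 libraries. The knockout level was 102.5% of wild type (95% interval 94.0 to 111.8). This corresponds to a log2 fold change of 0.04 ± 0.06 (SE, 3 libraries per group; edgeR, adjusted p = 0.754). Without wild-type replicate 3, which also held the most COL1A1 counts, the sign turned to -0.04 (edgeR, adjusted p = 0.594). Whether these are linked was not tested. NFE2L2 exons share 1054 of 5979 positions with a noncoding transcript on the same strand, so some of its reads are uncertain.

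KEAP1, on chromosome 19 (10486120 to 10503741, minus strand), had 83.2, 90.0 and 91.2 CPM in knockout libraries and 81.8, 83.3 and 87.4 CPM in wild-type libraries. The groups overlapped. The knockout level was 104.7% of wild type (95% interval 97.6 to 112.4; edgeR, adjusted p = 0.402), and the log2 fold change was 0.07, or 0.14 with the GC correction (edgeR, adjusted p = 0.0101). Without 1 library it ran from 0.04 to 0.11. The messenger RNA of the transcription factor was set against that of its inhibitor as the log2 ratio of their counts within a library. Protein was not measured. No scaling of libraries can alter this ratio, but it was not corrected for GC content, which is 45.6% for NFE2L2 and 60.3% for KEAP1. The ratio was -0.54 ± 0.07 in knockout and -0.51 ± 0.20 in wild-type libraries (SD, n = 3 each), a difference of -0.03 (two-sided exact permutation test, p = 0.8). The difference changed sign without knockout replicate 2 (0.00) and without wild-type replicate 1 or 2 (0.04 and 0.02).

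**Figure D2:**
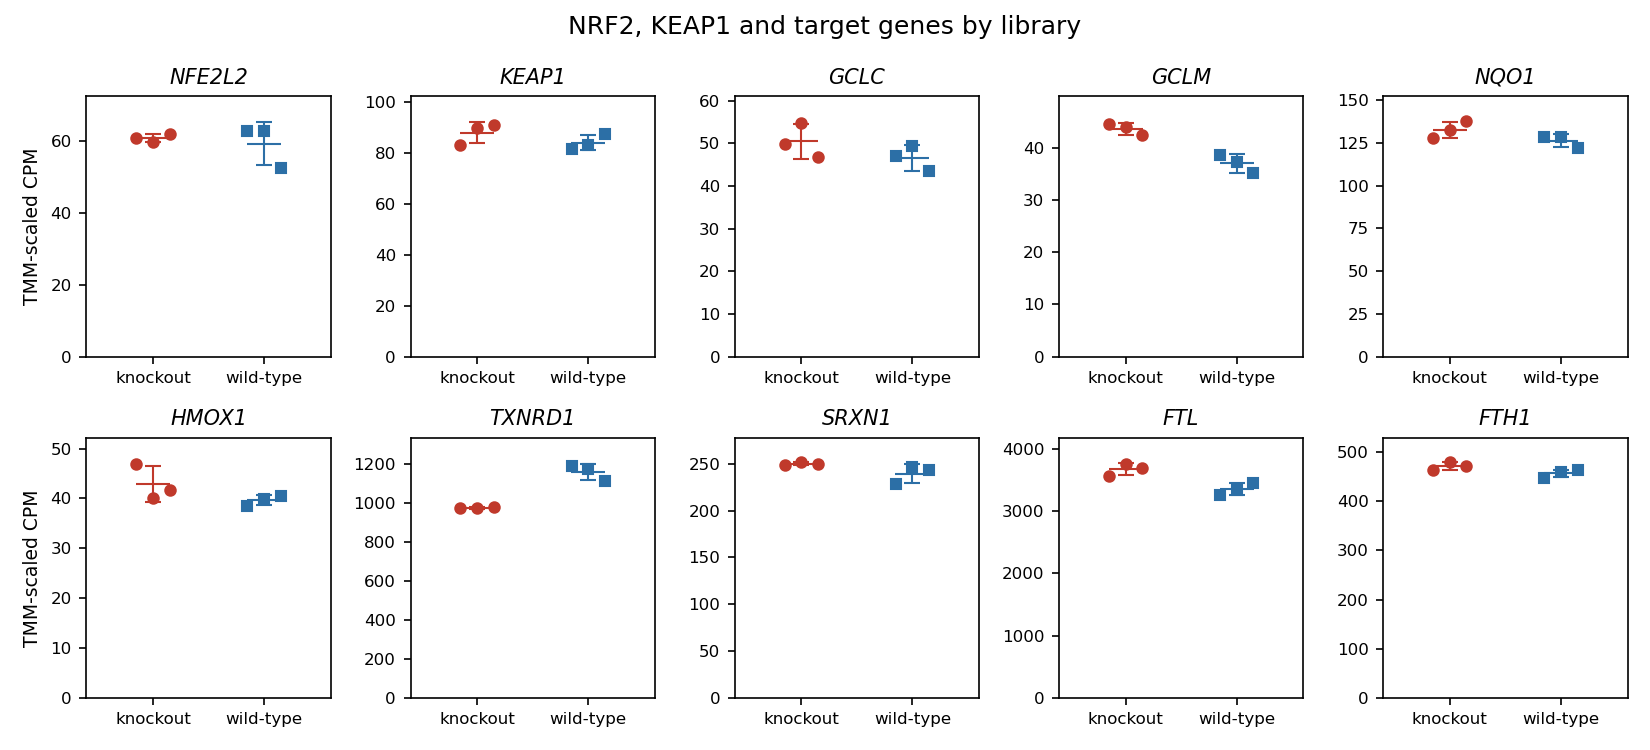
TMM-scaled CPM of the 10 genes in each library (y axes start at 0 and differ between panels), with knockout libraries as circles, wild-type libraries as squares, and the mean ± SD of 3 libraries as bars. The groups separate in GCLM, TXNRD1, SRXN1, FTL and FTH1 and overlap in the others.

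The 2 subunits of glutamate-cysteine ligase, the enzyme that limits glutathione synthesis, are described together: the modifier passed the test and the catalytic subunit did not. GCLM, the modifier subunit, which raises the activity of the enzyme, lies on chromosome 1 (93885205 to 93909456, minus strand). It had 44.7, 44.0 and 42.5 CPM in knockout libraries, against 38.7, 37.3 and 35.2 CPM in wild-type libraries. Every knockout library lay above every wild-type library. GCLM rose to 118.0% of the wild-type level (95% interval 108.4 to 128.4). On the log2 scale this was a difference of 0.24 ± 0.06 (SE, 3 libraries per group; edgeR, adjusted p = 0.00870). It did not pass without knockout replicate 1 or 2 (edgeR, adjusted p = 0.0544 and 0.0505) at log2 fold changes of 0.22 and 0.23. The GC correction lowered its log2 fold change to 0.14 (edgeR, adjusted p = 0.0448), more than 1.5 times.

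GCLC, the catalytic subunit, lies on chromosome 6 (53497341 to 53616970, minus strand). It had 49.7, 54.9 and 46.8 CPM in knockout libraries and 47.0, 49.4 and 43.4 CPM in wild-type libraries. These values overlapped, and knockout replicate 2 was the highest. The knockout level was 108.2% of wild type (95% interval 98.8 to 118.5; edgeR, adjusted p = 0.253), and the estimate for GCLM lies inside its interval. The log2 fold change of GCLC, 0.11, was 0.05 without knockout replicate 2 and 0.065 without wild-type replicate 3. Of the 8646 exon positions of GCLC, 529 are shared with a noncoding transcript on the same strand. The log2 ratio of GCLM to GCLC was -0.20 ± 0.10 in knockout and -0.33 ± 0.07 in wild-type libraries (SD, n = 3 each). The difference was 0.13 and the groups overlapped (two-sided exact permutation test, p = 0.3, where 3 against 3 libraries cannot give less than 0.1; adjusted over 4 ratios, 0.4). This ratio was not corrected for GC content either, which is 37.3% for GCLM and 44.3% for GCLC.

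TXNRD1, the cytosolic thioredoxin reductase, is a selenoprotein that uses NADPH to keep thioredoxin reduced. It lies on chromosome 12 (104215779 to 104350305, plus strand). It had 970.8, 971.0 and 979.8 CPM in knockout libraries, against 1189, 1173 and 1109 CPM in wild-type libraries. The 3 knockout libraries lay close together and all below the lowest wild-type library. TXNRD1 fell to 84.2% of the wild-type level (95% interval 80.4 to 88.1). This corresponds to a log2 fold change of -0.25 ± 0.03 (SE, 3 libraries per group; edgeR, adjusted p = 1.00e-05). It was lower and passed in all 18 alternative fits, with log2 fold changes from -0.28 to -0.23. Each count is a sum over the gene, so transcripts from its 2 starts are not separated.

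SRXN1, or sulfiredoxin, repairs overoxidized peroxiredoxins and is on chromosome 20 (646615 to 653370, minus strand). Its level was 248.6, 251.3 and 249.9 CPM in knockout libraries and 228.2, 246.9 and 243.0 CPM in wild-type libraries. The groups did not overlap, but wild-type replicate 2 came within 2 CPM of the lowest knockout library. SRXN1 was at 104.4% of wild type (95% interval 98.9 to 110.3; edgeR, adjusted p = 0.299), with log2 fold changes of 0.06 and, with the GC correction, 0.09 (edgeR, adjusted p = 0.0278). Without wild-type replicate 1 the log2 fold change was 0.025 (edgeR, adjusted p = 0.707). Most of its exon positions, 2292 of 2698, are shared with another protein-coding annotation on the same strand.

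The 2 thioredoxin-system genes were also set against each other within a library. The log2 ratio of SRXN1 to TXNRD1 was -1.97, -1.95 and -1.97 in knockout libraries, against -2.38, -2.25 and -2.19 in wild-type libraries. These ratios did not overlap, and their mean difference was 0.31 (two-sided exact permutation test, p = 0.1, the smallest that 3 against 3 libraries can give; adjusted over the 4 ratios, 0.2). Without any 1 library it ran from 0.26 to 0.35.

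**Figure D3:**
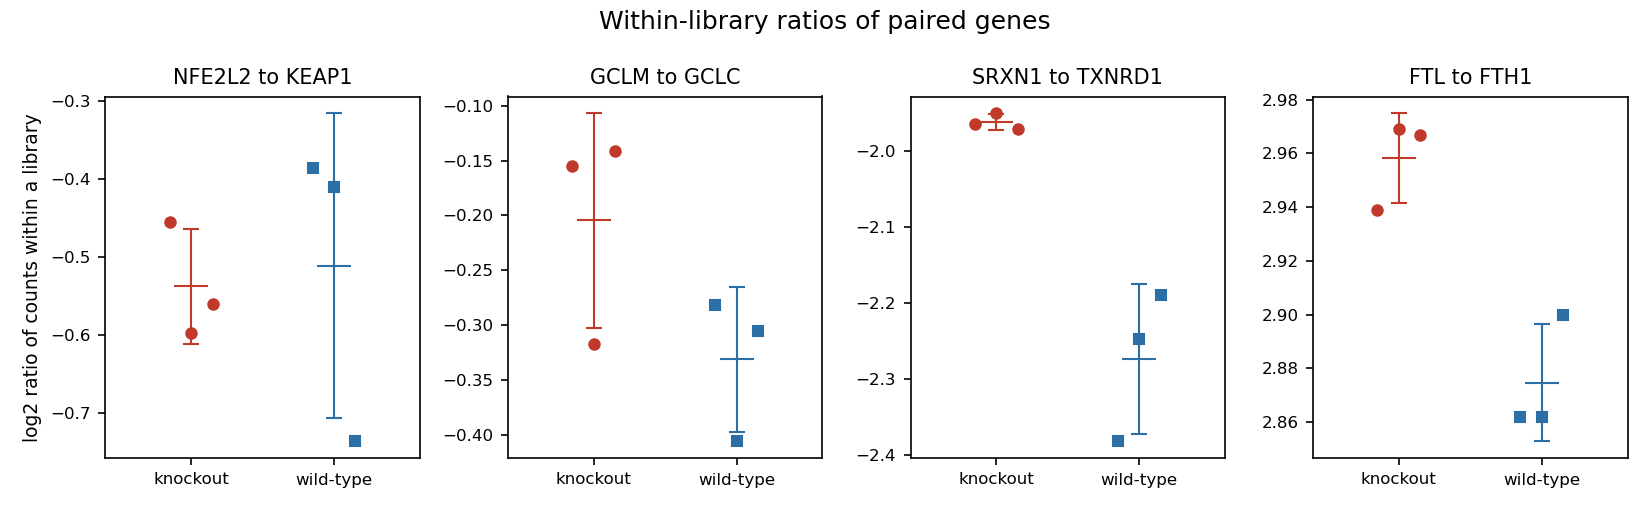
Log2 ratios of the counts of 2 genes within each library (y axes differ between panels), with knockout libraries as circles, wild-type libraries as squares and mean ± SD as bars. The ratios of SRXN1 to TXNRD1 and of FTL to FTH1 do not overlap between the groups and are higher in the knockout, and the other 2 ratios overlap.

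NQO1, a quinone reductase that spends NADH or NADPH to detoxify quinones, is on chromosome 16 (69706996 to 69726951, minus strand). It had 127.8, 132.5 and 137.6 CPM in knockout libraries and 128.7, 128.3 and 121.9 CPM in wild-type libraries. The groups overlapped, since knockout replicate 1 lay below the upper 2 wild-type libraries. Its knockout level was 105.1% of wild type (95% interval 98.7 to 111.8; edgeR, adjusted p = 0.304), and the log2 fold change of 0.07 ran from 0.04 to 0.10 without 1 library. Of the 3254 exon positions of NQO1, 575 are shared with an antisense transcript.

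HMOX1, heme oxygenase 1, opens the heme ring and releases iron; it is on chromosome 22 (35380361 to 35394214, plus strand). It had 47.0, 40.0 and 41.6 CPM in knockout libraries and 38.5, 39.9 and 40.6 CPM in wild-type libraries. Knockout replicate 1 stood above the other 5 libraries, which lay close together. The knockout level was 108.2% of wild type (95% interval 98.8 to 118.5; edgeR, adjusted p = 0.251), and the log2 fold change of 0.11 dropped to 0.04 without knockout replicate 1 (edgeR, adjusted p = 0.769). With the GC correction HMOX1 passed, at 0.17 (edgeR, adjusted p = 0.0263).

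Ferritin, the iron storage shell, is built from light chains (FTL) and heavy chains (FTH1), the heavy chain carrying the site that oxidizes iron. FTL, on chromosome 19 (48965301 to 48966878, plus strand), had 3563, 3755 and 3693 CPM in knockout libraries, against 3255, 3341 and 3455 CPM in wild-type libraries. All knockout libraries lay above all wild-type libraries. FTL rose to 109.5% of the wild-type level (95% interval 104.9 to 114.4). On the log2 scale this was a difference of 0.13 ± 0.03 (SE, 3 libraries per group; edgeR, adjusted p = 0.00512). Without knockout replicate 2 it did not pass, at 0.11 (edgeR, adjusted p = 0.0919).

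FTH1, on chromosome 11 (61959718 to 61967660, minus strand), had 464.5, 479.6 and 472.1 CPM in knockout libraries and 447.6, 459.7 and 462.8 CPM in wild-type libraries. The groups did not overlap, by a small margin. FTH1 was at 103.4% of wild type (95% interval 98.6 to 108.3), with a log2 fold change of 0.05 ± 0.03 (SE, 3 libraries per group; edgeR, adjusted p = 0.364), which was 0.03 without wild-type replicate 1. The log2 ratio of FTL to FTH1 was 2.94, 2.97 and 2.97 in knockout libraries, against 2.86, 2.86 and 2.90 in wild-type libraries. These did not overlap and differed by 0.08 (two-sided exact permutation test, p = 0.1; adjusted over the 4 ratios, 0.2).

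The counts of FTH1 are uncertain because 1267 of its 2030 exon positions are shared with BEST1, which lies on the opposite strand. BEST1 encodes bestrophin 1, a chloride channel known from the retinal pigment epithelium. In these colon carcinoma libraries it had 13530, 13942 and 14156 counts in the knockout and 13428, 13340 and 13434 in the wild type. That is 87.1% to 91.1% of the FTH1 count of the same library. Whether the counting used strand is not given in the sources used here, and the reads of the pair cannot be told apart. With BEST1 counts added to FTH1, the log2 fold change was 0.05 (edgeR, adjusted p = 0.269) and the FTL to FTH1 ratio differed by 0.08. GENCODE 29 annotates 25 pseudogenes of FTH1 and 16 of FTL, of which the tables list 1 each: FTH1P3, with 8 counts in every knockout library and 14, 20 and 13 in the wild-type libraries, and FTLP10, listed at 0.

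**Figure D4:**
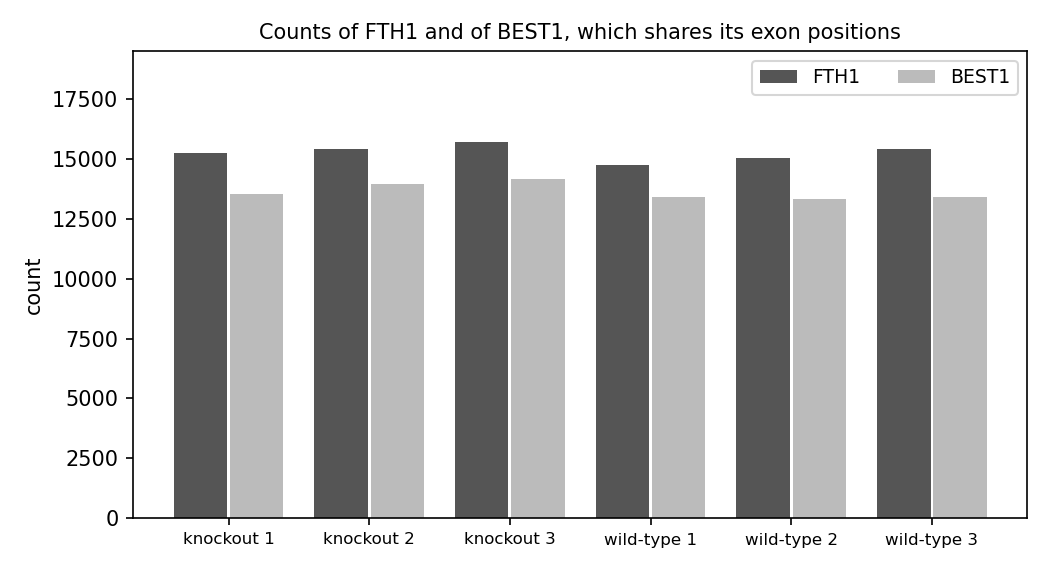
Counts of FTH1 (dark bars) and BEST1 (light bars) in each library, with knockout libraries on the left. BEST1, whose exons share positions with those of FTH1 on the other strand, has 87.1% to 91.1% of the FTH1 count in each library.

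Levels of the 10 genes were also compared per kilobase of annotated exon. In knockout libraries the order was FTL at 4180 ± 111 CPM per kilobase, FTH1 at 233 ± 3.72, TXNRD1 at 145 ± 0.768, SRXN1 at 92.6 ± 0.5, NQO1 at 40.8 ± 1.51, KEAP1 at 23.4 ± 1.14, HMOX1 at 17.8 ± 1.52, NFE2L2 at 10.1 ± 0.194, GCLM at 8.06 ± 0.21 and GCLC at 5.84 ± 0.471 (SD, n = 3). In wild-type libraries the order was the same, from 3820 ± 115 CPM per kilobase for FTL to 5.39 ± 0.349 for GCLC, and TXNRD1 stood at 172 ± 6.32. No 2 neighbours in either order overlapped in their libraries. The exon lengths are unions over all annotated transcripts, and the shared positions of FTH1 and SRXN1 leave their places uncertain. Together the 10 genes took 0.563% to 0.584% of all counts in knockout libraries and 0.555% to 0.570% in wild-type libraries, most of it FTL.

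Around these 10 genes, 6 lists of the wider network were followed, with 129 genes, of which 109 were tested. Of those, 6 rose, 10 fell and 93 did not pass, and their median log2 fold change was 0.00, the same as over all tested genes. The share called was close to the 13.5% of all tested genes. Leaving out wild-type replicate 2 left 4 of the 109 called, all lower; 8, 8 and 10 were called without knockout replicates 1, 2 and 3, and 24 were called without wild-type replicate 1. Over all genes, 1072 were called without wild-type replicate 2, 1094, 950 and 1205 without knockout replicates 1, 2 and 3, and 2531 without wild-type replicate 1. The GC correction called 36 of the 109, with 19 higher and 17 lower, a larger share than the 18.9% of all tested genes. The lists were not matched to all tested genes in expression level, on which the power of the test depends. Scaling by library size gave 3 higher and 11 lower.

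Among 16 tested genes for partners and turnover of NRF2, 2 fell and 0 rose; with the GC correction 3 were lower and 1 higher, and without 1 library 1 or 2 were called. MAFF, a small MAF protein that pairs with NRF2, had 42.4, 40.8 and 40.3 CPM in knockout libraries, against 54.5, 57.7 and 54.3 CPM in wild-type libraries. It fell by a log2 difference of -0.43 ± 0.06 (SE, 3 libraries per group; edgeR, adjusted p = 8.18e-06) and passed in all 18 alternative fits. NFE2L3, a relative of NRF2, had a mean of 36.5 ± 0.789 CPM in the knockout and 43.0 ± 2.17 CPM in the wild type (SD, n = 3; edgeR, adjusted p = 0.00952) and did not pass without knockout replicate 3 or wild-type replicate 2 (edgeR, adjusted p = 0.0533 and 0.0552). The other small MAF genes, MAFG and MAFK, had log2 fold changes of 0.01 and -0.02. The beta-TrCP genes BTRC and FBXW11, through which phosphorylated NRF2 is destroyed, had -0.07 and -0.004, and the KEAP1 partner CUL3 had 0.04, none of which passed.

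Of 30 tested glutathione genes, 4 were higher, 2 were lower and 24 did not pass. The 4 higher genes had a GC content of 35.4% (SLC7A11), 35.7% (GLRX2), 36.7% (CHAC2) and 40.8% (GPX8). The 2 lower genes had 57% (GPX3) and 62.6% (CHAC1). In the fifth of tested genes with the lowest GC, 14% were called higher and 2.17% lower. With the GC correction 7 glutathione genes were higher and 4 lower, and without 1 library 1 to 10 were called. Corrected log2 fold changes were 0.26 for SLC7A11, 0.25 for GLRX2, -0.44 for GPX3 and -0.58 for CHAC1. The part of GC content in these directions was not tested. SLC7A11, the cystine importer that feeds glutathione synthesis, had 17.7, 18.0 and 15.9 CPM in knockout libraries, against 15.1, 12.89 and 12.04 CPM in wild-type libraries. It rose with a log2 fold change of 0.37 ± 0.09 (SE, 3 libraries per group; edgeR, adjusted p = 0.00897), but did not pass without replicate 2 of the knockout or of the wild type (edgeR, adjusted p = 0.0578 and 0.0537). GLRX2, a mitochondrial glutaredoxin, rose to 13.2 ± 0.306 CPM in the knockout, against 10.3 ± 0.493 CPM in the wild type (SD, n = 3; edgeR, adjusted p = 0.00922, and 0.0587 without wild-type replicate 2).

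GPX3, a secreted glutathione peroxidase, had 15.9, 14.8 and 14.8 CPM in knockout libraries, against 21.1, 20.1 and 22.6 CPM in wild-type libraries. It fell in this fit and in all 18 alternatives, with a log2 fold change of -0.49 ± 0.08 (SE, 3 libraries per group; edgeR, adjusted p = 0.000149). CHAC1, which breaks glutathione down, was low, at 2.08 ± 0.0983 CPM in the knockout and 3.29 ± 0.373 CPM in the wild type (SD, n = 3), and fell (edgeR, adjusted p = 0.0157). Its call was lost without knockout replicate 1, wild-type replicate 2 or wild-type replicate 3 (edgeR, adjusted p = 0.0642, 0.0536 and 0.0529). The related gene CHAC2 went the other way and was more abundant, with a GC content of 36.7% against 62.6% for CHAC1. CHAC2 was not followed singly through the alternative fits. It had 14.7 ± 1.3 CPM in the knockout and 11.5 ± 1.04 CPM in the wild type (SD, n = 3; edgeR, adjusted p = 0.0162). GSS, GSR and GPX4 had log2 fold changes of -0.09, 0.00 and -0.11 and did not pass. Reads of SLC7A11 and GLRX2 may be shared with genes on the opposite strand.

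In the thioredoxin and peroxiredoxin list 2 of 18 tested genes fell and 0 rose. With the GC correction 4 were higher and 4 lower, and without 1 library 1 to 3 were called. TXNIP, the inhibitor that binds reduced thioredoxin, had 235.0, 242.5 and 235.3 CPM in knockout libraries, against 285.9, 298.2 and 281.3 CPM in wild-type libraries. Its fall, at -0.28 ± 0.04 on the log2 scale (SE, 3 libraries per group; edgeR, adjusted p = 1.13e-05), was close in size to that of TXNRD1 and passed in all 18 alternative fits. Thioredoxin itself, TXN, had 216.6 ± 1.73 CPM in the knockout and 199.3 ± 12.8 CPM in the wild type and did not pass (SD, n = 3; edgeR, adjusted p = 0.0645). SESN3, a sestrin, had 3.18 ± 0.405 CPM in the knockout and 4.54 ± 0.216 CPM in the wild type (SD, n = 3; edgeR, adjusted p = 0.0267). Among the fits without 1 library, SESN3 passed only without knockout replicate 3 or wild-type replicate 1 (edgeR, adjusted p = 0.0258 and 0.0259).

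**Figure D5:**
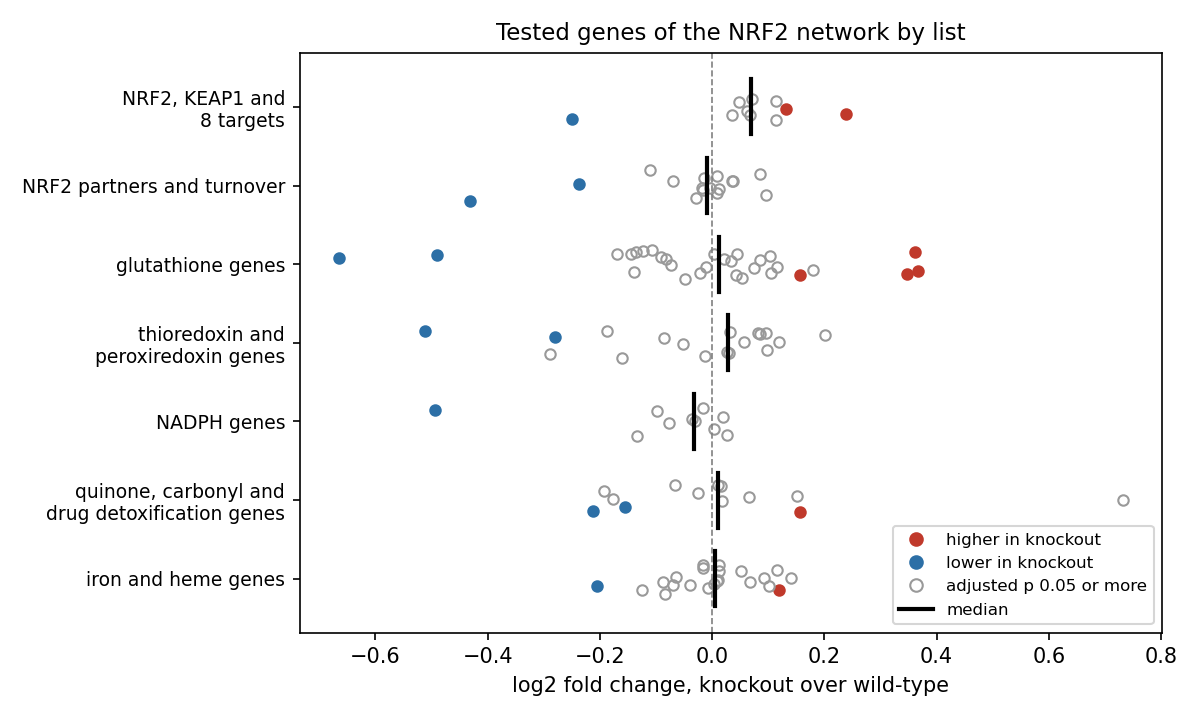
Log2 fold changes of knockout over wild-type libraries (x axis) for the tested genes of NRF2, KEAP1 and the 8 targets (top) and of 6 wider lists; each circle is a gene, filled where the adjusted p was under 0.05, and black bars are medians. Medians of the wider lists lie between -0.03 and 0.03.

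Of 10 tested NADPH genes, IDH2, the mitochondrial NADP-dependent isocitrate dehydrogenase, fell, 0 rose and 9 did not pass, and 3 were lower with the GC correction. IDH2 had 33.5, 34.5 and 33.6 CPM in knockout libraries, against 46.2, 48.2 and 48.6 CPM in wild-type libraries, with a log2 fold change of -0.49 ± 0.06 (SE, 3 libraries per group; edgeR, adjusted p = 1.93e-06). It passed in all 18 alternative fits. The pentose phosphate genes PGD and TKT had log2 fold changes of -0.03 and -0.08 and did not pass.

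Of 13 tested detoxification genes 1 rose and 2 fell, and without 1 library 0 to 4 were called. PTGR1, a reductase of reactive carbonyls, had 49.9 ± 2.25 CPM in the knockout and 57.9 ± 2.72 CPM in the wild type (SD, n = 3; edgeR, adjusted p = 0.0127), and did not pass without replicate 2 of the knockout or of the wild type (edgeR, adjusted p = 0.101 and 0.0985). The fatty aldehyde dehydrogenase gene ALDH3A2 fell, at -0.16 on the log2 scale (edgeR, adjusted p = 0.0369), and among the fits without 1 library passed only without wild-type replicate 1 or 3 (edgeR, adjusted p = 0.0300 and 0.00766). ABCC4, an exporter, rose by 0.16 on the log2 scale (edgeR, adjusted p = 0.0484), and among those fits passed only without wild-type replicate 1 (edgeR, adjusted p = 0.00743). Its call was also lost with library size scaling, the 1 CPM filter and no robust option (edgeR, adjusted p = 0.0848, 0.0511 and 0.0507).

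Of 22 tested iron and heme genes, 1 rose and 1 fell. With the GC correction 5 were higher and 1 lower, and 0 were called in each of the fits without a knockout library or without wild-type replicate 2. PCBP1, a chaperone that delivers iron to ferritin, had 333.3, 344.6 and 333.0 CPM in knockout libraries, against 306.5, 313.1 and 310.5 CPM in wild-type libraries. It rose by 0.12 ± 0.03 on the log2 scale (SE, 3 libraries per group; edgeR, adjusted p = 0.0210), but among the fits without 1 library passed only without wild-type replicate 1 or 3 (edgeR, adjusted p = 0.0357 and 0.00267) and did not pass with library size scaling (edgeR, adjusted p = 0.0505). For PCBP1, 914 of its 1750 exon positions are shared with an antisense transcript. SLC48A1, a heme transporter, had a log2 fold change of -0.21 (edgeR, adjusted p = 0.0463). It passed without wild-type replicate 1 (edgeR, adjusted p = 0.0182), in none of the other 5 fits without 1 library, and not with DESeq2 (adjusted p = 0.0522) or the GC correction (edgeR, adjusted p = 0.0851). The transferrin receptor TFRC, the ferritin autophagy receptor NCOA4 and the iron regulatory protein genes ACO1 and IREB2 had log2 fold changes of 0.05, 0.00, -0.07 and 0.12 and did not pass.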

How the data were processed

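Polyadenylated RNA of 6 RKO libraries was sequenced as paired-end reads of 150 bp, per the labels' protocols. The values deposited by the authors are whole-number counts per gene symbol, 1 table per library, not normalized. Per the submitters' processing notes, hg38 was the build, and TopHat, limma and edgeR were among the tools, with no versions or roles given. How reads were counted (program, annotation, strand, reads with several matches) is not given in the sources used here, which bears on FTH1, FTL and SRXN1.

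Counts were fitted in R 4.3.3 with edgeR 4.0.16 (filterByExpr, minimum count 10 and minimum total 15; TMM scaling; robust quasi-likelihood fit with group as its only term) over all 14409 genes that passed, and p-values were adjusted over all of them. SEs were derived from the fold change and F statistic. Pairs of libraries within a group differed by more than sampling noise (chi-square per degree of freedom 3.16 to 9.71, the highest for wild-type replicates 1 and 3). Each library was counted as 1 replicate, but this spread may be technical and does not show that the libraries were separate cultures. Ratios within a library used counts plus 0.5 and exact permutation tests, adjusted over 4 ratios, and were not rerun with the GC correction. Symbols were matched to GENCODE 29 (26218 of 28278), which gave positions, exon lengths and the GC content of the longest transcript. Promoters came from RefSeq (GRCh38.p14).

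Alternatives were RLE scaling, library size scaling, 2 other filters, DESeq2 1.42.0, limma-voom (limma 3.58.1), no robust option, a replicate block, a GC correction (per library, a spline of 5 degrees of freedom, centred so that the TMM scale was kept) with and without the block, and leaving out each library. Chosen after seeing the data were the GC correction without centring and adding BEST1 counts to FTH1; the centring itself was chosen after a first result without it. The script was tested on simulated data. The 10 genes and all lists were chosen with earlier results of these data known. From each list the text names up to 4 called genes with the largest fold changes and at least 1 CPM. GSS, GSR, GPX4, CHAC2, MAFG, MAFK, BTRC, FBXW11, CUL3, TXN, PGD, TKT, TFRC, NCOA4, ACO1, IREB2 and BEST1 were named outside this rule, after their values were seen. So were GPX8 and, under other observations, AKR1C1, AKR1C2, AKR1B10, GPX2, ME1, SESN2, SLC40A1 and ALDH3A1.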

Additional observations from a re-analysis of the deposited data

How the results depend on the processing

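The calls of GCLM, FTL and TXNRD1, and no other of the 10 genes, were made under RLE scaling, library size scaling, both other filters, DESeq2, limma-voom, estimation without the robust option, the replicate block and BEST1 counts added to FTH1. The GC correction called 6 of the 10 genes, 5 with the replicate block as well (GCLM had an adjusted p of 0.0505 in edgeR) and 8 without centring. Without 1 library, 1 to 3 of the 10 were called. Over all genes, 1951 were called (917 higher, 1034 lower), 650 higher and 1229 lower with library size scaling, 2723 with the GC correction (18.9% of those tested; 2745 with the block), 3045 with the GC correction without centring (1982 higher, 1063 lower), and 950 to 2531 without 1 library. Genes called in the 6 wider lists numbered 16, and 36 with the GC correction with or without the block, 37 without centring, and 4 to 24 without 1 library. Uncentred, the correction moved the median of all genes to 0.02. Signs turned for NFE2L2 without wild-type replicate 3 (-0.044; range without 1 library to 0.078), for GSK3A without wild-type replicate 1 (-0.01; range to 0.073) and for the NFE2L2 to KEAP1 ratio, which ran from -0.139 to 0.037 without 1 library. The other 3 ratios kept their direction. The cause of these changes was not tested. The labels do not say whether replicate numbers pair the libraries. Deviations of same-numbered libraries correlated at 0.07, -0.004 and 0.03, and not every library correlated best with its own number. With so few libraries this cannot exclude a pairing. The replicate block called 2193 genes over all, 3 of the 10 and 17 of the lists.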

Other observations

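Several genes widely used as NRF2 markers were at or near 0 in these RKO libraries. AKR1C1 averaged 0.152 CPM in the knockout and 0.0808 CPM in the wild type, AKR1C2 0.0718 and 0 CPM, and AKR1B10 0.0200 and 0.0810 CPM. GPX2, a gut glutathione peroxidase, averaged 0.133 CPM in the knockout and 0.0405 CPM in the wild type. The filter on low counts left these 4 genes out, so they were not tested. ME1, SESN2, SLC40A1 and ALDH3A1 were listed at 0 in all 6 libraries, and a listed 0 is not taken here to mean that a gene is silent.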
